A study of Mus musculus with 8 samples.

Results

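Leukocyte integrins are the adhesion receptors with which monocytes stop on the vessel wall and cross it. The set described here holds 10 subunit genes chosen by name: the beta-2 family (Itgb2 with Itgal, Itgam and Itgax), the alpha-4 and beta-7 chains with their beta-1 partner (Itga4, Itgb7 and Itgb1), and the fibronectin and vitronectin receptor chains (Itga5, Itgav and Itgb3). All 10 were found in the count table of 56748 genes, and all 10 passed the filter on low counts, which kept 11222 genes. RNA had been sequenced from splenic Ly6Chigh monocytes (inflammatory, or classical, mouse monocytes), sorted from Olfr2 knockout (KO) and wild-type (WT) mice at day 7 after an aneurysm was induced. There were 4 KO and 4 WT libraries, and both genotypes had gone through the aneurysm procedure, so that no library came from an animal without it. The series title sets Olfr2, an olfactory receptor gene, in the context of abdominal aortic aneurysm and the recruitment of monocytes. Strain, sex, age, the knockout allele and the way the aneurysm was induced are not stated in the labels. The labels also leave it unsaid whether different libraries are different animals; p-values therefore reflect variation among these libraries only, which may be technical.

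An integrin is a pair of 1 alpha and 1 beta chain, and a chain without a partner is retained inside the cell. Itgb2 pairs with Itgal to form LFA-1, with Itgam to form Mac-1 (CD11b/CD18) and with Itgax to form CD11c/CD18. LFA-1 and Mac-1 bind ICAM proteins on endothelium, and Mac-1 also binds complement fragments and fibrinogen. Itga4 pairs with Itgb1 to form VLA-4, the receptor for VCAM-1, or with Itgb7 to form the receptor for the gut addressin MAdCAM-1. Itga5 with Itgb1 binds fibronectin, and Itgav with Itgb3 binds vitronectin and other proteins that carry an RGD sequence. Talin and kindlin bind the beta tails and switch the receptors on.

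The libraries held between 17258427 and 21728794 counts in KO and between 16111725 and 19048245 counts in WT. Lyz2 alone took 10.2% to 11.9% of the counts of a library. All 11 listed markers of classical monocytes passed the filter, among them Ly6c2 with 5195 ± 791 CPM in KO and 4572 ± 359 CPM in WT (CPM, counts scaled to the size of the library; SD, n = 4 each). Every KO sum of the 11 (137980 to 178560 CPM) lay above every WT sum (115060 to 133320 CPM), as did 5.35% of single tested genes. Log2 changes were positive in 8 and negative in 3, and 0 passed the adjusted threshold (1.06% of all tested genes). The markers were uneven. Lyz2 made up most of each of these sums and overlapped, with 108550 to 124690 CPM in KO and 96652 to 114540 CPM in WT. Chil3, the next most abundant, had 28530 ± 12711 CPM in KO and 10797 ± 2658 CPM in WT (edgeR adjusted p = 0.0786). Its libraries did not overlap, at 17380 to 44051 CPM in KO and 6823 to 12297 CPM in WT. Fn1 went the other way, with 54.9 ± 15.2 CPM in KO and 118 ± 35.9 CPM in WT. Olfr2 had a count of 0 in each of the 8 libraries, which allows up to 0.139 to 0.184 CPM in KO and 0.147 to 0.186 CPM in WT for counting error only, so that it could not check the genotype labels. By the numbers in their column names, replicates 1 and 2 of each genotype belong to a 1600 series and replicates 3 and 4 to a 1700 series; no label explains these numbers. The summed level of 15 mitosis genes was 461, 860, 418 and 134 CPM in KO 1 to 4 and 38.1, 188, 58.9 and 39.3 CPM in WT 1 to 4, with 14 tested, all 14 higher in KO at an unadjusted p under 0.05 (8.93% of all tested genes) and 1 past the adjusted threshold (0.223%). That of 12 neutrophil markers was 2393, 3704, 814 and 630 CPM in KO 1 to 4 and between 292 and 618 CPM in WT. Mmp8 made up 230 to 524 CPM of the WT sums. Of these markers 5 were tested, and 0 passed the adjusted threshold. All 5 were higher in KO, 3 of them at an unadjusted p under 0.05 (8.93% of all tested genes). The filter left out others, among them Ngp (108 and 86.8 CPM in KO 1 and KO 2, 0 to 1.54 CPM in WT) and Camp (64.5 and 42.6 CPM, 0 to 0.668 CPM in WT), so that the test does not cover them.

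RefSeq windows of 300 bases around the gene start (250 before it, GRCm38.p6) could be matched for 7 of the 10 genes: Itgam, Itgax, Itga4, Itgb1, Itgb7, Itga5 and Itgav. Below are the windows of Itga4 (chr2:79255176-79255475) and Itgav (chr2:83724147-83724446), whose transcripts had lower mean levels in KO, and of Itgam (chr7:128062390-128062689) and Itgb1 (chr8:128685404-128685703), whose transcripts did not, all on the plus strand. Capitals mark GAGGAA, or TTCCTC where the match lies on the other strand, the core that the myeloid factor PU.1 binds.
Itga4: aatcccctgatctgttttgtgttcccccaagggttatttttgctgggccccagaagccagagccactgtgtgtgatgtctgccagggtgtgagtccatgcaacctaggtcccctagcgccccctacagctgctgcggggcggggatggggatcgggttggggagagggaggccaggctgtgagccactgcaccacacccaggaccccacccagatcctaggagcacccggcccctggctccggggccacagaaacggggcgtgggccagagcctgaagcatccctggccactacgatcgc
Itgav: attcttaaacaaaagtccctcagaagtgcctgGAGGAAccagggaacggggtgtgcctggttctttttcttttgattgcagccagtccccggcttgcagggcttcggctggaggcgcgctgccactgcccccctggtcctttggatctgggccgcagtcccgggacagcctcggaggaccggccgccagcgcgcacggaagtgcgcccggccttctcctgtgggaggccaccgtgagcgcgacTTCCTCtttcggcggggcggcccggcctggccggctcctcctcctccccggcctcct
Itgam: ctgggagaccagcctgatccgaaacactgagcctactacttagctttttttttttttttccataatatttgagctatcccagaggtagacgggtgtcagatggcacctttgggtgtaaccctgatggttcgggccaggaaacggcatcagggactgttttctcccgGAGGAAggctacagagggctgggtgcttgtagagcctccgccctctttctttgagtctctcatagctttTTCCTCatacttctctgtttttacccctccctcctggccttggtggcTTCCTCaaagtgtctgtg
Itgb1: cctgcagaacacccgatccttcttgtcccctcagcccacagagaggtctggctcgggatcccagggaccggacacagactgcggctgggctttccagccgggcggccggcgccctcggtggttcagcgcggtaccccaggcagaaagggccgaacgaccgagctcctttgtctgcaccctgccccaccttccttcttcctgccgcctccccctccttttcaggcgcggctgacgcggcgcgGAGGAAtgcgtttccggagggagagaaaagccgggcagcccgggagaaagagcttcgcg
GAGGAA occurred in 5 of the 7 windows, against 28.3% of 32851 RefSeq windows of the same length. Itgam held 3 matches, whose first bases lie 84 and 15 bases before the start and 32 bases after it. Itgav held 2, and Itgb1, Itgb7 and Itga5 had 1 each. Itga4 and Itgax had no match. The GC box GGGCGG, searched on both strands, was found in 5 of the 7 windows and in 35.7% of all windows. TGTGGT, a RUNX core, was found in 2 (Itga4 and Itgax) and in 16.8% of all. TATAAA was found in 0 of the 7 and in 13.6% of all. No match overlapped another in these windows, and a match only describes these letters.

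Per length of the longest annotated transcript, Itgb7 and Itgb2 were the most abundant of the 10 transcripts, and Itgb3 the scarcest. Itgb2 averaged 121 ± 4.95 CPM per kilobase in KO and 108 ± 24.2 CPM per kilobase in WT (SD, n = 4 each). Itgb7 averaged 96.9 ± 23.6 in KO and 111 ± 13.2 in WT on the same scale, and the libraries of the 2 genes overlapped in both genotypes. Itgb1 came next with 23.8 ± 3.43 CPM per kilobase in KO and 18.8 ± 4.49 in WT, below every library of Itgb2 and Itgb7. The alpha chains were all scarcer than these beta chains. By this length Itgal stood first among them, with 4.38 ± 0.39 CPM per kilobase in KO and 6.56 ± 1.23 in WT. Itga4 had 2.18 ± 0.19 in KO and 3.53 ± 0.72 in WT, and Itgam 3.26 ± 0.34 in KO and 3.11 ± 0.87 in WT. Their libraries overlapped in WT, where the mean of Itga4 was the higher, while in KO every library of Itgam lay above every library of Itga4. Itga5, Itgav and Itgax lay between 0.548 and 1.29 CPM per kilobase by their means. Neighbours in the WT order among these 3 overlapped. Itgb3, whose WT libraries overlapped those of Itgax, had 0.0867 ± 0.0623 CPM per kilobase in KO and 0.257 ± 0.139 in WT. The order depends on the length used. Per kilobase of the median transcript length, the WT mean was 14.9 CPM for Itga4 and 8.12 CPM for Itgal, which turns their order, and 663 CPM for Itgb7 and 133 CPM for Itgb2.

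**Figure D1:**
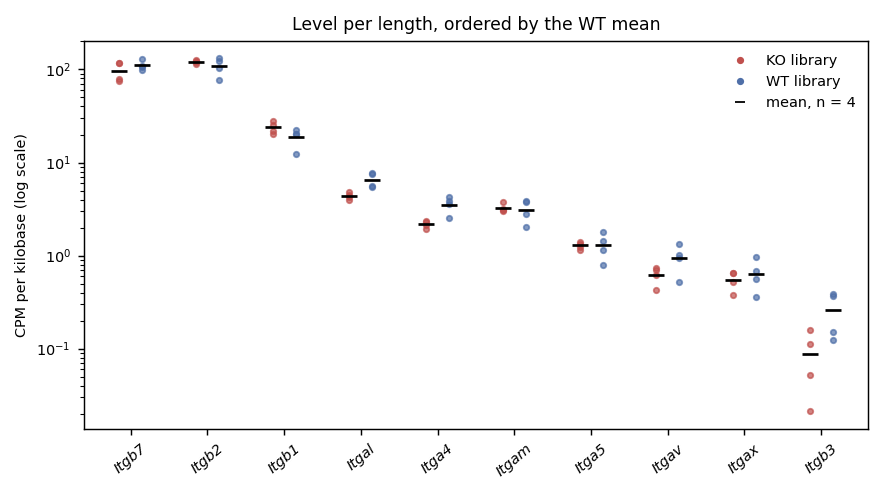
Level of each integrin transcript in CPM per kilobase of the longest transcript (log axis), genes in order of the WT mean, with KO libraries left of WT libraries and bars at the means of 4. Itgb7 and Itgb2 lie highest in every library, and Itgb3 reaches no more than 0.39.

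The level of Itgam, the CD11b chain, is uncertain. In GENCODE M21, a protein-coding model named Gm49368 lies on the same strand and shares 3450 of the 5024 exon bases of Itgam, or 68.7%. Reads in shared bases can be dropped, split or given to 1 gene, and no source used here gives the counting setting. Gm49368 had counts of 1, 0, 0 and 0 in KO 1 to 4 and of 2, 2, 5 and 2 in WT 1 to 4. With the length of the longest transcript reduced by that share, as if no read in shared bases had been counted, the level of Itgam per kilobase would be 10.4 CPM in KO and 9.93 CPM in WT, the highest of the alpha chains. This reading was chosen after the data were seen. Itga4 shares 8.04% of its exon bases with Cerkl on the opposite strand, and Itgav shares 5.90% with Gm13684. The strand setting of the counting is not given either, and Cerkl had 37 to 54 counts in KO and 30 to 53 counts in WT. The other 7 genes shared no exon base with another annotated gene.

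The design compares KO with WT monocytes. None of the 10 integrin genes passed an adjusted p of 0.05 in either direction (edgeR quasi-likelihood test, Benjamini-Hochberg over 11222 genes), where 1.06% of all tested genes passed. An unadjusted p under 0.05 was reached by 4 of 10, all lower in KO, against 20.9% of all tested genes in either direction and 12% lower in KO. These were Itga4, Itgal, Itgb3 and Itgav. DESeq2 called 2 members, Itga4 and Itgal, and 6.99% of the genes it tested, and limma-voom called 0 members and 0% of all tested genes. Log2 changes were negative in 7 of the 10 genes, against 50.4% of all tested genes. The median log2 change of the 10 was -0.21, beside a median of -0.0038 over all tested genes. In 2 of 10 genes, Itgal and Itga4, every KO library lay below every WT library, as in 6.06% of all tested genes. In 0 of 10 did every KO library lie above every WT library, as in 5.35% of all tested genes. In bulk RNA, fewer cells of a type and less RNA per cell cannot be told apart.

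**Figure D2:**
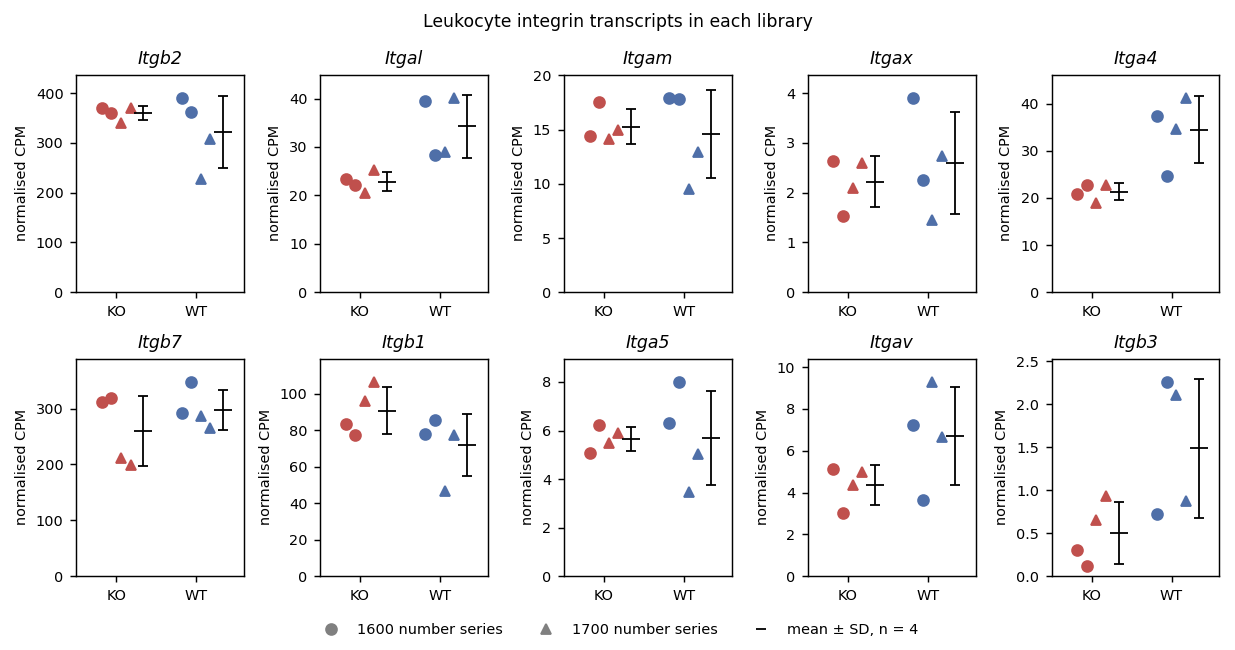
Normalised CPM of the 10 integrin transcripts in each library, KO left and WT right in each panel, circles for the 1600 and triangles for the 1700 number series, with mean ± SD (n = 4). The KO and WT points are separate for Itgal and Itga4 and overlap for the other 8 genes.

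Itgb2 (ENSMUSG00000000290; GRCm38 chromosome 10, 77530252 to 77565708, plus strand), the common beta chain of LFA-1, Mac-1 and CD11c/CD18, did not pass the test. Its levels were 371, 361, 339 and 370 CPM in KO 1 to 4 and 391, 362, 227 and 308 CPM in WT 1 to 4. KO libraries lay close together, while WT 3 and WT 4, both of the 1700 series, were the lowest of the 8. The log2 change was 0.16 ± 0.15 (SE; 95% interval -0.16 to 0.49; edgeR adjusted p = 0.557).

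Itgal (ENSMUSG00000030830; chromosome 7, 127296260 to 127335138, plus strand), the LFA-1 alpha chain, had 23.4, 22.2, 20.5 and 25.3 CPM in KO 1 to 4 and 39.5, 28.4, 29.0 and 40.2 CPM in WT 1 to 4. The highest KO library, KO 4, lay below the lowest WT library, WT 2. The log2 change was -0.58 ± 0.16 (SE; 95% interval -0.92 to -0.25), with an edgeR adjusted p of 0.0773 and an unadjusted p of 0.00225. Set against its beta chain in the same library, Itgal per kilobase was 3.59%, 3.50%, 3.43% and 3.89% of Itgb2 in KO 1 to 4 and 5.75%, 4.47%, 7.26% and 7.43% in WT 1 to 4. This share, which no scaling of a library changes, did not overlap between the genotypes, while every other ratio formed between members did. An effect of transcript length can remain in it, as the longest transcripts have 5222 bases (Itgal) and 2970 bases (Itgb2). WT 3 and WT 4, with the highest shares, had the lowest Itgb2 (227 and 308 CPM). The share is given as a description, since Itgal was known to differ when the ratio was formed. How often ratios of other genes separate the genotypes was not computed.

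Itgam (ENSMUSG00000030786; chromosome 7, 128062640 to 128118491, plus strand) had 14.4, 17.6, 14.1 and 14.95 CPM in KO 1 to 4 and 17.9, 17.8, 9.57 and 12.97 CPM in WT 1 to 4, so that the KO libraries lay within the WT range. This gave a log2 change of 0.07 ± 0.20 (SE; 95% interval -0.36 to 0.49; edgeR adjusted p = 0.876). Itgam per kilobase was 2.69% ± 0.279 of Itgb2 in KO and 2.85% ± 0.216 in WT (SD, n = 4 each), and the libraries overlapped. Itgax (ENSMUSG00000030789; chromosome 7, 128129547 to 128150657, plus strand), the CD11c chain that dendritic cells carry in quantity, was scarce, with 25 to 56 counts in KO libraries and 27 to 76 counts in WT libraries. Its levels were 2.64, 1.54, 2.10 and 2.60 CPM in KO 1 to 4 and 3.90, 2.26, 1.46 and 2.73 CPM in WT 1 to 4, which overlapped. KO differed from WT by -0.22 ± 0.31 (SE; 95% interval -0.88 to 0.45; edgeR adjusted p = 0.726) on the log2 scale, an interval that spans both directions.

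Itga4 (ENSMUSG00000027009; chromosome 2, 79255426 to 79333123, plus strand), the alpha chain of VLA-4, had 20.7, 22.6, 19.0 and 22.8 CPM in KO 1 to 4 and 37.3, 24.6, 34.6 and 41.2 CPM in WT 1 to 4. Every KO library lay below every WT library, and WT 2 came nearest to KO. On the log2 scale KO minus WT was -0.69 ± 0.16 (SE; 95% interval -1.05 to -0.34), with an edgeR adjusted p of 0.0569 and an unadjusted p of 0.000899, the smallest of the 10 genes. It ranked 176 among all tested genes by p.

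Both partners of Itga4 were more abundant per kilobase, and KO and WT libraries overlapped in both. Itgb7 (ENSMUSG00000001281; chromosome 15, 102215995 to 102231944, minus strand) had 311, 318, 211 and 200 CPM in KO 1 to 4 and 292, 348, 286 and 264 CPM in WT 1 to 4. KO 3 and KO 4 were the lowest of the 8, and KO 1 and KO 2 lay within the WT range. The estimated log2 change was -0.20 ± 0.16 (SE; 95% interval -0.55 to 0.15; edgeR adjusted p = 0.517). Itgb1 (ENSMUSG00000025809; chromosome 8, 128685654 to 128733200, plus strand) had 83.6, 77.2, 96.0 and 107 CPM in KO 1 to 4 and 77.9, 85.6, 46.9 and 77.2 CPM in WT 1 to 4. KO 3 and KO 4 were the highest and WT 3 the lowest. Its log2 change stood at 0.34 ± 0.18 (SE; 95% interval -0.04 to 0.72; edgeR adjusted p = 0.287). Per kilobase, Itga4 was 9.68%, 11.5%, 7.71% and 8.36% of Itgb1 in KO 1 to 4 and 18.7%, 11.2%, 28.9% and 20.9% in WT 1 to 4. Here WT 2 lay within the KO range, and the other 3 WT libraries lay above it.

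Among the receptors for matrix proteins, Itga5 (ENSMUSG00000000555; chromosome 15, 103344286 to 103366763, minus strand) had the most even means, 5.67 ± 0.491 CPM in KO and 5.70 ± 1.93 CPM in WT (SD, n = 4 each). Its log2 change came to -0.01 ± 0.24 (SE; 95% interval -0.53 to 0.50; edgeR adjusted p = 0.985). Its WT libraries spread from 3.46 to 8.00 CPM, on both sides of the KO range of 5.09 to 6.21 CPM. Itgav (ENSMUSG00000027087; chromosome 2, 83724397 to 83806916, plus strand) had 5.15, 3.01, 4.34 and 4.97 CPM in KO 1 to 4 and 7.24, 3.63, 9.30 and 6.64 CPM in WT 1 to 4. WT 2 alone among the WT libraries lay within the KO range. KO minus WT was -0.61 ± 0.27 (SE; 95% interval -1.20 to -0.03; edgeR adjusted p = 0.221, unadjusted p = 0.042) on the log2 scale.

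Itgb3 (ENSMUSG00000020689; chromosome 11, 104608000 to 104670476, plus strand), the beta chain of platelets and of the vitronectin receptor, had the largest log2 change of the 10 and the fewest reads. Its counts were 5, 2, 14 and 20 in KO 1 to 4 and 14, 46, 39 and 14 in WT 1 to 4. For counting error only, the exact 95% Poisson interval was 0.242 to 7.23 for the 2 counts of KO 2 and 33.7 to 61.4 for the 46 counts of WT 2. Levels were 0.299, 0.123, 0.654 and 0.929 CPM in KO 1 to 4 and 0.719, 2.26, 2.11 and 0.869 CPM in WT 1 to 4. KO 4 lay above WT 1 and WT 4, so that the genotypes overlapped. The log2 change was -1.51 ± 0.54 (SE; 95% interval -2.67 to -0.35), with an edgeR adjusted p of 0.142 and an unadjusted p of 0.0144. The 11 platelet and megakaryocyte markers, which would come with platelets on the sorted cells, summed to 0.467 to 0.882 CPM in KO and 0.491 to 0.703 CPM in WT. Among them Gp9, Gp1bb and Treml1 had 0 counts in every library, and Itga2b, the platelet partner of Itgb3, averaged 0 CPM in KO and 0.0128 CPM in WT. Others had reads: Vwf averaged 0.388 CPM in KO and 0.41 CPM in WT, and Pf4 0.0922 and 0.119 CPM. Ppbp averaged 0.153 CPM in KO and 0 CPM in WT. Of the 11 markers 0 passed the low-count filter, and the part of platelets in the level of Itgb3 was not tested.

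**Figure D3:**
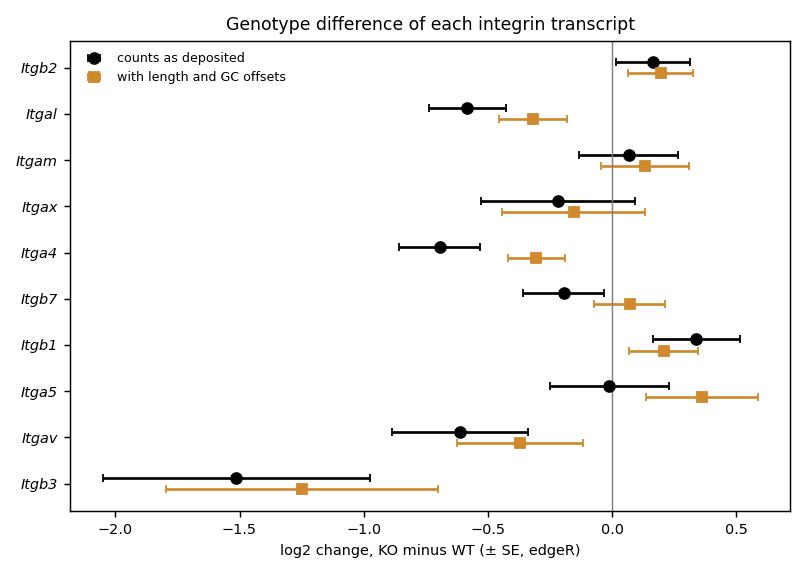
Log2 change of each integrin transcript, KO minus WT (± SE, edgeR), from the counts as deposited (circles) and with offsets for transcript length and GC content (squares). The changes of Itgal and Itga4 move to -0.32 and -0.31 with the offsets, and the SE bars of Itgam, Itgax and Itga5 cross 0 in the first fit.

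Transcript length and GC content moved with these differences. Over all tested genes the median log2 change was 0.07 in the shortest 10% of transcripts and -0.34 in the longest 10%, where Itga4 (9767 bases) and Itgav (7054 bases) lie. It was -0.10 in the tenth of transcripts by length that holds Itgal (5222 bases) and Itgb3 (5784 bases), and 0.03 in that of Itgb2 and Itgb7. By GC content the median was 0.12 in the lowest 10% and -0.36 in the highest 10%, where Itgb7 and Itga5 lie. Here Itga4 and Itgav lie on the other side, in GC classes with medians of 0.12 and 0.11. With offsets per library for length and GC content, the log2 change of Itga4 was -0.31 ± 0.12 (SE, edgeR adjusted p = 0.2) and that of Itgal -0.32 ± 0.14 (adjusted p = 0.258). Itgav came to -0.37 ± 0.25 and Itgb3 to -1.25 ± 0.55. With the offsets the estimates of Itgb7 (0.07 ± 0.14) and Itga5 (0.36 ± 0.22) were positive. Under this fit 1 gene of the whole table passed.

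The side of the threshold on which Itga4 and Itgal fell depended on single libraries and on the tool. Without WT 2, the WT library with the most mitosis transcripts, the edgeR adjusted p was 0.00931 for Itga4 and 0.0373 for Itgal, with log2 changes of -0.82 and -0.66, where 4.5% of the genes tested passed. Over 22 alternatives the adjusted p of Itga4 ran from 0.00491 to 0.287 and passed in 5, and that of Itgal ran from 0.0169 to 0.295 and passed in 4. Both stayed negative in all 22. For Itga4, WT 2 was the WT library nearest to KO, and for Itgal WT 2 (28.4 CPM) and WT 3 (29.0 CPM) were about as near. WT 3 had 58.9 CPM of mitosis transcripts, and KO 4 (134 CPM) had fewer than WT 2 (188 CPM). The part of cycling cells in the result was not tested. Without KO 1 and KO 2, which held the most neutrophil transcripts, the whole-table count of calls was 0 higher and 7 lower, and none was an integrin member.

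The genotype difference was then taken within each number series, with the spread pooled over the 4 groups of 2 libraries. In the 1600 series all 10 log2 changes were negative, against 53.4% of all tested genes, and in the 1700 series 5 of 10 were negative, against 50.7%. Itgal had a difference of -0.57 ± 0.22 (SE) in 1600 and -0.59 ± 0.22 in 1700 libraries, and Itga4 had -0.51 ± 0.22 and -0.86 ± 0.22. In both genes both KO libraries lay below both WT libraries in each series. Over the 10 genes, both KO libraries lay below both WT libraries in 5 in the 1600 series (26.7% of all tested genes) and in 4 in the 1700 series (28.3%). They lay above both WT libraries in 0 in the 1600 series (25.6%) and in 4 in the 1700 series (27.3%): Itgb2, Itgam, Itgb1 and Itga5. Itgam and Itga5 were below in the 1600 and above in the 1700 series, as 5.38% of all tested genes were, and 0 of 10 showed the reverse, as 5.53% did. Itgb2 was at -0.04 ± 0.15 in the 1600 series and 0.41 ± 0.15 in the 1700 series, and Itgb1 at -0.02 ± 0.20 and 0.71 ± 0.20. Itgb7 ran the other way, with -0.02 ± 0.13 in the 1600 series and -0.42 ± 0.13 in the 1700 series. For Itgb3 the difference was -2.78 ± 0.78 in the 1600 series, where KO 1 and KO 2 had 5 and 2 counts, and -0.92 ± 0.63 in the 1700 series. None of the 10 passed within either series (smallest edgeR adjusted p of 0.0905 for Itgb3 in the 1600 series and 0.0652 for Itga4 in the 1700 series), where 1.85% and 1.38% of all tested genes passed. At an unadjusted p under 0.05 there were 3 members in the 1600 series (background 19.5%) and 5 in the 1700 series (22.7%).

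The difference between the series was itself tested. None of the 10 passed the interaction term (edgeR, adjusted), which 0.784% of all tested genes passed, and 1 of 10, Itgb1, had an unadjusted p under 0.05 (16.1% of all tested genes). For Itgb1 the interaction, 1700 minus 1600, was 0.73 ± 0.29 on the log2 scale (SE, edgeR adjusted p = 0.237). Among WT libraries the 1700 minus 1600 difference was -0.49 ± 0.15 for Itgb2, -0.67 ± 0.22 for Itgam, -0.76 ± 0.28 for Itga5 and -0.40 ± 0.20 for Itgb1 (edgeR adjusted p between 0.38 and 0.534). The first 3 of these had an unadjusted p under 0.05, as did 10.1% of all tested genes, and 0 genes of the whole table passed the adjusted test there. Among KO libraries the same difference was -0.04 ± 0.15, -0.14 ± 0.22, 0.01 ± 0.28 and 0.33 ± 0.20 for these 4 genes. The largest KO difference between series, other than that of Itgb3, was that of Itgb7, at -0.61 ± 0.13 (edgeR adjusted p = 0.0755), where 0.499% of all tested genes passed. The series cannot be traced to a step of the experiment from the labels.

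**Figure D4:**
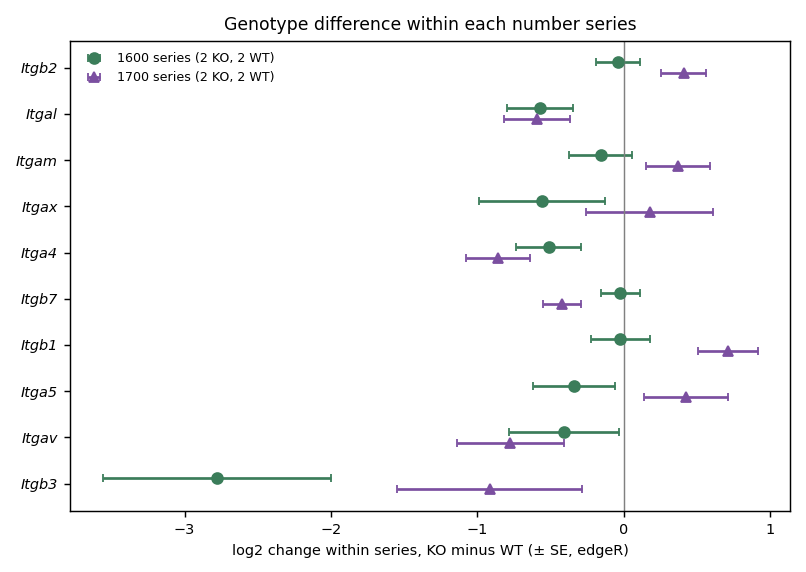
Log2 change of each integrin transcript, KO minus WT (± SE, edgeR with spread pooled over 4 groups), in the 1600 series (circles) and the 1700 series (triangles), each with 2 KO and 2 WT libraries. Itgal lies near -0.6 in both series, while Itgb2 and Itgb1 lie near 0 in the 1600 series and to the right of 0 in the 1700 series.

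For each integrin gene the transcript with the most similar pattern was sought among 5240 other genes with a mean of at least 10 CPM, by the root mean square difference of centred log2 CPM over the 8 libraries. The nearest to Itgal was Tmem131l, with a difference of 0.12, and the nearest to Itga4 was the kinase gene Syk, with 0.13. Kat8 lay nearest to Itgb2 at 0.03, and Tlr13 nearest to Itgb1 at 0.07. The pattern of Itgb7 was most like that of Cyth1 at 0.14, and that of Itgam most like that of Ints13 at 0.10. For scale, the libraries of Itgal deviated from their mean by 0.34 on the same measure and those of Itgb2 by 0.24. Pja2 lay nearest to Itga5 at 0.10, Crip2 nearest to Itgav at 0.19 and Fgl2 nearest to Itgax at 0.22. The nearest to Itgb3, H2-Eb1, differed by 0.41, where the libraries of Itgb3 themselves deviated by 1.06.

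The rest of the integrin system was read from lists chosen with earlier results of these data known. Of 16 other integrin subunit genes only Itga1, Itga8 and Itgb5 passed the low-count filter, and 0 of these 3 passed the test. Itgb5, a partner of Itgav, had 19.96 ± 2.59 CPM in KO and 22.8 ± 4.01 CPM in WT (SD, n = 4 each; edgeR adjusted p = 0.531). Itga8, an RGD-binding alpha chain, was at -0.87 ± 0.54 on the log2 scale (SE, edgeR adjusted p = 0.385). Itgad, a further beta-2 partner, and Itgae, the partner of Itgb7 on mucosal T cells, averaged at most 0.103 CPM in KO and 0.108 CPM in WT.

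Of 17 tested genes that activate integrins or bind their tails, 14 were negative, against 50.4% of all tested genes, and the median log2 change was -0.25. At an unadjusted p under 0.05 (edgeR), 6 were lower and 1 higher in KO (12% and 8.93% of all tested genes). The adjusted threshold was passed by 1 of 17, lower in KO, against 0.838% of all tested genes. That gene was Flna, which encodes filamin A, an actin crosslinker that binds beta tails in competition with talin. It fell to 19.9 ± 2.98 CPM in KO, against 41.3 ± 12.2 CPM in WT (SD, n = 4 each; log2 change -1.05 ± 0.20, SE; edgeR adjusted p = 0.037). Without KO 2, KO 3, WT 1 or WT 3 in turn, 0 genes of the whole table passed, Flna included. With the length and GC offsets 1 gene of the whole table passed, and estimates under that fit are not given here for the genes of these lists. Tln1, the gene of talin-1, had 10.3 ± 0.836 CPM in KO and 24.4 ± 10.6 CPM in WT and did not pass (log2 change -1.25 ± 0.27, adjusted p = 0.0528). The Rap1 effector Apbb1ip (RIAM), which brings talin to the membrane, had a log2 change of -0.72 ± 0.20 (adjusted p = 0.0831). Fermt3, the kindlin of blood cells, was at -0.25 ± 0.14 and Rap1b, the abundant Rap1 GTPase of leukocytes, at -0.01 ± 0.12. Itgb1bp1, which encodes ICAP-1, an inhibitor that binds the beta-1 tail, had 128 ± 8.12 CPM in KO and 104 ± 11.1 CPM in WT (adjusted p = 0.175).

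Of 24 tested genes of actin linkage and signalling behind integrins, 0 passed (1.06% of all tested genes). Log2 changes were negative in 17 of 24 (50.4% of all tested genes), with a median of -0.11. At an unadjusted p under 0.05 (edgeR), 7 were lower and 0 higher in KO (12% and 8.93% of all tested genes). The smallest p-values were those of Parvb, which encodes beta-parvin (log2 change -1.30 ± 0.37, edgeR adjusted p = 0.0868), and of Syk, a kinase that signals from beta-2 integrins (-0.55 ± 0.18, adjusted p = 0.11). The Src-family kinase genes Fgr and Lyn, which act with beta-2 integrins, had log2 changes of -0.19 and 0.26 and did not pass. Of 13 membrane partners 0 passed, with 7 of 13 negative and a median of -0.06. At an unadjusted p under 0.05 (edgeR), 2 of these partners were lower and 3 higher in KO (12% and 8.93% of all tested genes). Emb, which encodes embigin, a relative of basigin, had 1697 ± 59.8 CPM in KO and 1307 ± 159 CPM in WT (adjusted p = 0.104). Cd81, a tetraspanin that supports VLA-4, had 24.4 ± 3.66 CPM in KO and 17.5 ± 0.633 CPM in WT (adjusted p = 0.104). Of 9 tested ligand genes 0 passed, with 4 of 9 negative and a median of 0.01. At an unadjusted p under 0.05 (edgeR), 1 ligand gene was lower and 2 were higher in KO (12% and 8.93% of all tested genes). Fn1, the fibronectin gene, had 54.9 ± 15.2 CPM in KO and 118 ± 35.9 CPM in WT (log2 change -1.11 ± 0.25, adjusted p = 0.0583). Spp1, which encodes osteopontin, had 9.24 ± 4.91 CPM in KO and 2.49 ± 1.06 CPM in WT (log2 change 1.87 ± 0.45, adjusted p = 0.0721).

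**Figure D5:**
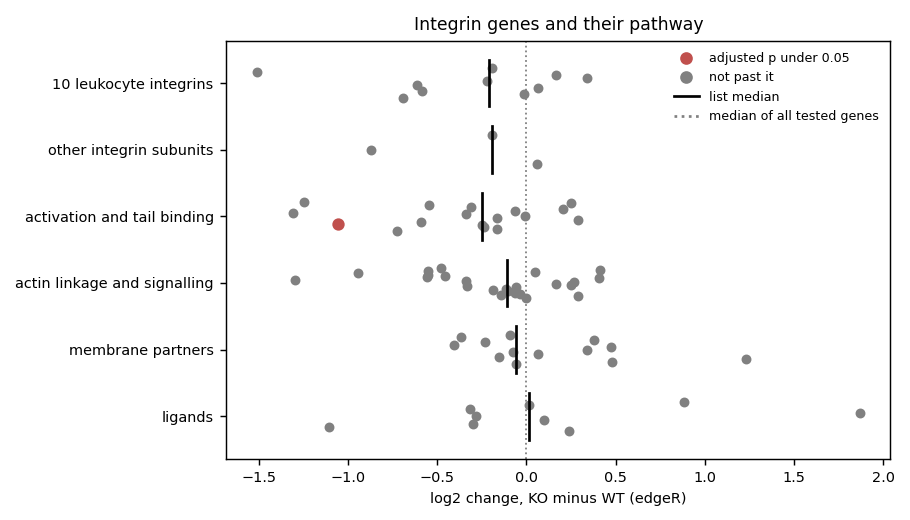
Log2 change, KO minus WT (edgeR), of each tested gene in the integrin set and 5 lists of the pathway, with the list median as a black bar and the median of all tested genes as a dotted line. The coloured point in the list of activation and tail binding is Flna at -1.05.

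Cells that carry some of these chains in quantity were checked by their markers. B cell markers summed to 205 to 363 CPM in KO and 192 to 372 CPM in WT, and Pax5, Ebf1 and Fcmr had 0 counts in every library. Most of the sum was Ighm, with 246 ± 67.8 CPM in KO and 247 ± 72.6 CPM in WT (SD, n = 4 each). Cd79b had 24.9 ± 9.01 CPM in KO and 26.8 ± 9.72 CPM in WT. Igkc had 11.2 CPM in WT 4 and 0.0982 to 0.432 CPM in WT 1 to 3. Of 3 tested B cell markers 0 passed. T and NK cell markers summed to 2.76 to 4.74 CPM in KO and 1.44 to 2.97 CPM in WT, with Ncr1 at 0 counts. Nkg7, the 1 tested marker of this list, was higher in KO, with 1.67 ± 0.818 CPM in KO and 0.434 ± 0.068 CPM in WT (SD, n = 4 each; log2 change 1.92 ± 0.41, edgeR adjusted p = 0.0433). The summed level of conventional dendritic cell markers was 167, 145, 632 and 582 CPM in KO 1 to 4 and between 293 and 544 CPM in WT. Cd209a, which monocytes can also express, made up 69.9, 51.2, 460 and 423 CPM of the KO sums. Other markers of the list were also lower in KO 1 and KO 2 than in KO 3 and KO 4. Batf3 had 16.8, 13.3, 32.0 and 37.1 CPM in KO 1 to 4. Dpp4 had 16.1, 14.8, 35.5 and 35.2 CPM there, and Clec10a 45.8, 49.1, 85.6 and 68.3 CPM. Flt3 lay between 15.8 and 18.0 CPM in the KO libraries, and Zbtb46, Xcr1, Clec9a and Itgae averaged below 0.24 CPM in KO and in WT. Of 5 tested markers 0 passed, and 1, Batf3, was lower in KO at an unadjusted p under 0.05 (edgeR, 12% of all tested genes). KO 1 and KO 2, the lowest in Cd209a, had the highest Itgb7 of the KO libraries, and the part of Cd209a-expressing cells in that difference was not tested. Markers of nonclassical monocytes, which carry much LFA-1, summed to 239, 169, 250 and 245 CPM in KO 1 to 4 and between 257 and 330 CPM in WT. Every KO sum lay below every WT sum, as for Itgal and 6.06% of all tested genes. The nearest were KO 3 (250 CPM) and WT 4 (257 CPM). Treml4, the most abundant of these markers, overlapped, with 122 ± 18.0 CPM in KO and 135 ± 33.9 CPM in WT. Of the 10 markers 9 were negative (50.4% of all tested genes), and the median log2 change was -0.49. At an unadjusted p under 0.05 (edgeR), 5 were lower and 0 higher in KO (12% and 8.93% of all tested genes). Besides Pou2f2 these were Nr4a1 (log2 change -0.73), Ace (-0.73), Eno3 (-0.60) and Fabp4 (-0.90). The adjusted threshold was passed by 1, lower in KO (0.838% of all tested genes). This was Pou2f2, with 0.133 ± 0.0776 CPM in KO and 1.88 ± 0.571 CPM in WT (edgeR adjusted p = 0.017). Its KO mean was near the counting floor of 0.139 to 0.184 CPM. The part of nonclassical monocytes in the levels of Itgal and Itga4 was not tested. Plasmacytoid dendritic cell markers summed to 97.2 to 145 CPM in KO and 189 to 229 CPM in WT, nearly all of it Bst2, a gene that interferon also induces in other cells. Bst2 fell to 124 ± 21.4 CPM in KO, against 203 ± 18.4 CPM in WT (SD, n = 4 each; log2 change -0.71 ± 0.14, edgeR adjusted p = 0.0377). Tcf4 had a log2 change of -0.05 ± 0.20 (adjusted p = 0.913), and Siglech and Klk1, which define these cells, had 0 counts in every library.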

How the data were processed

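Libraries were built from sorted splenic monocytes by SMART-Seq v4, which primes on the poly(A) tail and switches template at the cap end (source: the labels). The authors deposited raw counts for every gene in 1 table. HISAT2 2.0.5, featureCounts 1.5.0-p3 and GRCm38 appear in the submitters' processing notes. No source used here gives the annotation or the strand setting. Priming at the tail can affect the recovery of long transcripts. The labels name no molecular identifiers, and intervals and floors therefore cover counting error only.

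The counts were tested with edgeR 4.0.16 in R 4.3.3 (filterByExpr, TMM factors, robust quasi-likelihood fit, Benjamini-Hochberg at 0.05 over all tested genes). CPM are scaled by TMM factors. Offsets for length and GC content were smoothed per library with mgcv 1.9.3. DESeq2 1.42.0 and limma 3.58.1 (voom) were alternatives. Coordinates and lengths come from GENCODE M21 (GRCm38). No 2 libraries of a genotype agreed within sampling noise. The edgeR script was tested on simulated data.

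The members and lists were chosen with earlier results of these data known. Genes outside the members were named by rule: in each pathway list those past the threshold, and the 2 with the smallest p; the nearest pattern of a member; and markers a result turns on. Itgad, Itgae, Apbb1ip, Fermt3, Rap1b, Itgb1bp1, Fgr and Lyn were added for their role after their values were seen.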

Additional observations from a re-analysis of the deposited data

Results flagged for a closer look

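In 2 of 10 integrin genes the 2 number series went opposite ways: both KO libraries lay below both WT libraries in the 1600 series and above both in the 1700 series. This held for 5.38% of all tested genes. For Itgam the difference between the series, 1700 minus 1600, was 0.53 ± 0.31 on the log2 scale (SE, edgeR interaction, adjusted p = 0.427), and for Itga5 it was 0.77 ± 0.40 (adjusted p = 0.376). Neither passed the test of the difference. Across 20 groups of 4 CPM values, 0 had a library far from the other 3, where chance gives about 1.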

How the results depend on the processing

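Whole-table calls were unstable, at 25 higher and 94 lower as reported. They came to 196 and 415 at an adjusted p of 0.1, 214 and 528 with no filter on low counts, 101 and 150 with the number series as covariate, 0 and 1 with the length and GC offsets, 73 and 26 in the 1600 series alone, 0 and 7 without KO 1 and KO 2, 325 and 459 with DESeq2, 0 and 0 with limma-voom, and 80 and 396 with its quality weights. Leaving out 1 library gave 0 to 142 higher and 0 to 373 lower: 0 and 0 without KO 2, KO 3, WT 1 or WT 3, 0 and 3 without WT 4, 4 and 60 without KO 1, 139 and 96 without KO 4, and 142 and 373 without WT 2. Integrin members called lower numbered 0 as reported, 2 at an adjusted p of 0.1, 1 with upper-quartile factors (Itga4), 3 with no filter (Itga4, Itgal and Itgb3), 2 with DESeq2, 2 with quality weights, and 0 to 2 with 1 library left out, the 2 without WT 2 (Itga4 and Itgal each time). Members called higher numbered 0 in every setting run.

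The replicate block on the title numbers gave 143 higher and 101 lower calls, and 141 and 42 with the offsets, with 0 integrin members. Same-numbered libraries of the genotypes correlated by -0.049 to 0.093 in their deviations, and other pairs by -0.147 to 0.129. Of 4 KO libraries, 1 correlated best with its own number. Same-numbered libraries share a title number and a number series. With 4 libraries per genotype, these correlations cannot show whether they share anything else.

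Changes of sign touched only genes that never passed. Itga5, at -0.01, was 0.035 with the number series as covariate, 0.045 with the replicate block, 0.36 and 0.40 with the offsets without and with the block, 0.43 in the 1700 series alone, 0.0011 without KO 1 and KO 2, 0.042 with limma-voom, and -0.19 to 0.20 with 1 library left out. Itgb7 was 0.070 and 0.045 with the offsets without and with the block. In the 1600 series alone Itgam was -0.17, Itgb2 -0.053 and Itgb1 -0.036, and in the 1700 series alone Itgax was 0.18. Itgam was -0.068 with quality weights and -0.091 to 0.18 with 1 library left out, and Itgax -0.41 to 0.053. Of the 10 ranks by level per kilobase in WT, 4 stayed with the median transcript length and 7 with the longest transcript reduced by the share of exon bases in other genes, a length chosen after seeing the data. Depth limits Itgb3 and Itgax most.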
